A study of Mus musculus with 99 samples.

Results

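The 10 genes described here encode transcription factors and associated proteins that mark undifferentiated mouse embryonic stem cells (ESCs). They are Pou5f1, Sox2, Nanog, Klf4, Klf2, Esrrb, Zfp42, Tfcp2l1, Prdm14 and Dppa3. They were taken by name, 10 of the 55341 gene names in the count table. Their RNA was read in all 16 RNA-seq libraries, and the ChIP-seq peaks of every antibody were read over each gene and 2.5 kb on either side.

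The study asked what the enzymatic activity of RING1B contributes to Polycomb repression. Parental cells are ROSA26::creERT2 RING1A-/-;RING1B fl/fl ESCs, in which 4-hydroxy tamoxifen (OHT, 0.5 µM for 72 h) activates Cre and deletes the floxed RING1B gene. RING1B WT and RING1B I53S cells are clones of the same line that also express FLAG-HA-tagged wild-type or I53S mutant mouse RING1B from a pCAG vector, and every one of these cells lacks RING1A with or without OHT. Eed fl/fl cells are ESCs made from ROSA26:creERT2 Eed fl/fl blastocysts, in which OHT deletes Eed, a core subunit of Polycomb repressive complex 2 (PRC2). Groups without OHT received ethanol as vehicle, all cells grew in serum medium with 2i/LIF, and each of the 8 groups (4 lines, with and without OHT) had 2 RNA-seq libraries. ChIP-seq was also read from MTF2 KO derivatives of these cells other than Eed fl/fl, and for MTF2 and JARID2 from cells given OHT for 48 h. The submitters call the 2 libraries biological replicates. Whether they came from separate cultures or clones is not given in the labels, and the p-values measure only the spread between them.

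Pluripotency in the mouse rests on OCT4 (encoded by Pou5f1), SOX2 and NANOG, which bind jointly to enhancers of genes active in ESCs, their own included. Around them stand the naive factors KLF2, KLF4, ESRRB, TFCP2L1 and PRDM14, which respond to LIF, Wnt and MEK signals and fade when cells leave the ground state, together with Zfp42 (REX1) and Dppa3 (STELLA), long used as markers of it. Polycomb repressive complex 1 (PRC1), with RING1A or RING1B as its ubiquitin ligase, places H2AK119ub1, and PRC2 places H3K27me3, and both are best known for silencing developmental genes in these cells.

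Total counted reads ran from 6957248 to 12743460 per library. Levels are given as CPM (counted reads per common library size) after TMM scaling. In Parental cells Rnf2, the gene for RING1B, stood at 198 and 257 CPM without OHT and at 144 and 167 CPM with it, and Ring1 (RING1A) at 1.11 to 2.69 CPM throughout. Counts over the whole of Rnf2 do not isolate the deleted part. RING1B peaks lay at 19.5% of protein-coding genes in Parental cells without OHT and at 2.36% with OHT. Each of the 10 genes was detected in all 16 libraries, from 11.4 CPM (Prdm14, a RING1B I53S library with OHT) to 2051 CPM (Tfcp2l1, a RING1B WT library without OHT), and all 10 passed the filter on low counts.

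Most of the 10 genes were lower in Parental cells with OHT than without. In these cells 8 of them fell at an adjusted p under 0.05, 1 rose (Dppa3), and Klf4 did not pass. Among all 18154 genes tested 12.4% fell and 21.9% rose by this rule. With a fold threshold added (a log2 fold change of 1.5 or more in size), 4 of the 10 fell, against 1.83% of all genes, and 1 rose, against 15.1%. The median log2 fold change of the 10 was -1.35, and that of all genes tested was 0.027. In RING1B I53S cells the same genes passed, 8 lower against 8.37% of all genes and 1 higher against 18.4%. With the fold threshold 3 fell, against 1.04% of all genes, and 0 rose, against 12.8%, and the median of the 10 was -1.04. In RING1B WT cells 0 of the 10 passed in either direction by edgeR, against 2.21% of all genes, and DESeq2 passed 0. An unadjusted edgeR p under 0.05 was found for 3 of the 10, against 15.8% of all genes. The median of the 10 there was -0.40.

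**Figure D1:**
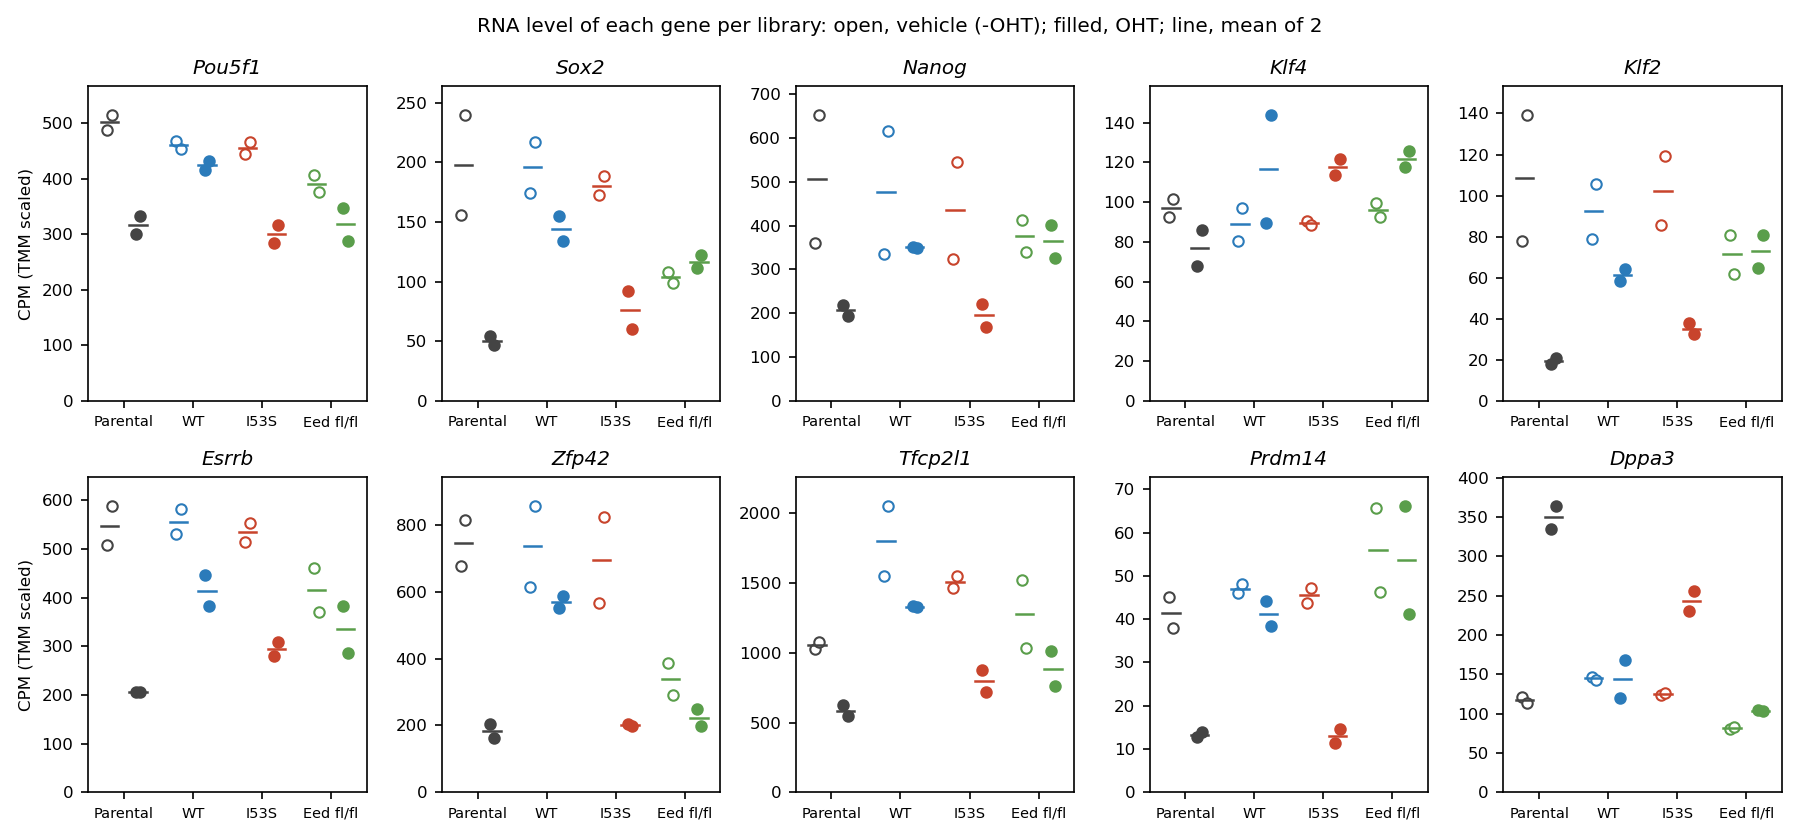
RNA level of the 10 genes in each of the 16 libraries, in TMM-scaled CPM on a linear axis from 0, with the 4 lines along the x axis. Open points are vehicle libraries, filled points OHT libraries, and lines the mean of 2. In Parental and RING1B I53S cells the OHT points of Sox2, Klf2, Zfp42 and Prdm14 lie far below the vehicle points, and those of Dppa3 lie above them.

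Pou5f1 (ENSMUSG00000024406.16, chr17:35506018-35510772, plus strand, mm10), whose product OCT4 is indispensable for pluripotency, kept the most of its RNA among the genes that fell. It read 488 and 515 CPM in Parental cells without OHT and 301 and 333 CPM with it. In RING1B I53S cells the values were 444 and 467 CPM without OHT and 283 and 316 CPM with it. RING1B WT cells held 467 and 453 CPM without OHT and 415 and 432 CPM with it. Groups with and without OHT did not overlap in any of these lines, and the gap was narrow in RING1B WT cells. The change was -0.66 on the log2 scale in Parental cells (SE 0.16, edgeR adjusted p = 0.00297), -0.60 in RING1B I53S cells (SE 0.16, edgeR adjusted p = 0.00776) and -0.12 in RING1B WT cells (edgeR adjusted p = 0.776). The Parental call was lost without the Parental OHT library of replicate 1 (edgeR adjusted p = 0.0597), and the RING1B I53S call without the vehicle library of replicate 2 (edgeR adjusted p = 0.0557).

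Sox2 (ENSMUSG00000074637.7, chr3:34650405-34652461, plus strand), the partner of OCT4 on joint motifs, fell more steeply. It went from 156 and 240 CPM to 54.3 and 46.5 CPM in Parental cells and from 173 and 188 CPM to 92.3 and 60.3 CPM in RING1B I53S cells. RING1B WT cells held 174 and 217 CPM without OHT and 155 and 134 CPM with it. No OHT value reached its line's vehicle values, and those of Parental and RING1B I53S cells lay lowest. Sox2 changed by -1.97 in Parental cells (SE 0.23, edgeR adjusted p = 3.42e-06) and by -1.24 in RING1B I53S cells (SE 0.23, edgeR adjusted p = 0.00045). In RING1B WT cells the value was -0.44 (SE 0.22, edgeR adjusted p = 0.354). Sox2 is a single-exon gene inside the long noncoding gene Sox2ot, which held 3 to 88 counts per library, and counting did not use strand.

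Nanog (ENSMUSG00000012396.12, chr6:122707489-122714633, plus strand), a homeobox factor that varies between individual ESCs, had the widest ratio between vehicle libraries in each of the 3 RING1B lines. Parental cells held 361 and 653 CPM without OHT and 218 and 195 CPM with it. RING1B I53S cells held 325 and 546 CPM without OHT and 222 and 168 CPM with it. RING1B WT cells held 336 and 616 CPM without OHT and 351 and 349 CPM with it. The vehicle library numbered 2 was the higher in all 3 lines, and with OHT the Parental and RING1B I53S values lay below every vehicle value while those of RING1B WT cells lay between theirs. The log2 fold change was -1.30 in Parental cells (SE 0.29, edgeR adjusted p = 0.00157), -1.16 in RING1B I53S cells (SE 0.29, edgeR adjusted p = 0.00485) and -0.44 in RING1B WT cells (edgeR adjusted p = 0.472). Without the RING1B I53S vehicle library of replicate 2 the I53S value was -0.75 (edgeR adjusted p = 0.117).

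The 2 Krüppel-like factors went apart. Klf2 (ENSMUSG00000055148.7, chr8:72319033-72321656, plus strand), which is sustained by MEK inhibition in 2i, had the steepest fall of the 10 genes in Parental cells, and Klf4 (ENSMUSG00000003032.8, chr4:55527143-55532466, minus strand), a direct STAT3 target, passed the test in no line. Klf2 went from 77.8 and 139 CPM to 17.8 and 21.1 CPM in Parental cells and from 85.6 and 119.2 CPM to 37.8 and 32.7 CPM in RING1B I53S cells. In RING1B WT cells it read 78.9 and 106 CPM without OHT and 58.4 and 64.4 CPM with it. The OHT values were below the vehicle values in each line and lowest in Parental cells. Its log2 fold change was -2.48 in Parental cells (SE 0.26, edgeR adjusted p = 9.28e-07), -1.54 in RING1B I53S cells (SE 0.25, edgeR adjusted p = 0.000151) and -0.59 in RING1B WT cells (edgeR adjusted p = 0.239).

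Klf4 read 92.7 and 102 CPM without OHT and 67.8 and 85.8 CPM with it in Parental cells. In RING1B I53S cells it read 90.7 and 88.5 CPM without OHT and 114 and 122 CPM with it, and in RING1B WT cells 80.4 and 97.2 CPM without OHT and 89.4 and 144 CPM with it. The OHT values were the lower ones in Parental cells and the higher ones in RING1B I53S cells, and in RING1B WT cells the groups overlapped. The log2 fold changes were -0.34 (edgeR adjusted p = 0.231), 0.40 (edgeR adjusted p = 0.18) and 0.39 (edgeR adjusted p = 0.385) in the Parental, RING1B I53S and RING1B WT lines.

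Esrrb (ENSMUSG00000021255.17, chr12:86361117-86521628, plus strand), an orphan nuclear receptor downstream of GSK3 inhibition, dropped from 508 and 588 CPM to 206 and 206 CPM in Parental cells. In RING1B I53S cells it went from 514 and 554 CPM to 280 and 310 CPM. RING1B WT cells held 532 and 582 CPM without OHT and 447 and 382 CPM with it. The vehicle groups of the 3 lines lay close together, and the OHT groups were ordered Parental, RING1B I53S and RING1B WT from low to high without overlap. Its log2 fold change was -1.41 in Parental cells (SE 0.17, edgeR adjusted p = 3.48e-06), -0.86 in RING1B I53S cells (SE 0.17, edgeR adjusted p = 0.00071) and -0.43 in RING1B WT cells (edgeR adjusted p = 0.196).

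Tfcp2l1 (ENSMUSG00000026380.10, chr1:118627945-118685168, plus strand), a CP2-family factor that acts downstream of LIF, had its lowest vehicle level in Parental cells. Vehicle libraries held 1027 and 1079 CPM in Parental cells, 1461 and 1548 CPM in RING1B I53S cells and 1547 and 2051 CPM in RING1B WT cells. With OHT the values were 624 and 546 CPM, 875 and 719 CPM, and 1336 and 1325 CPM in the same order. Each OHT value was below the vehicle values of its line. The log2 fold change was -0.85 in Parental cells (SE 0.17, edgeR adjusted p = 0.000798), -0.92 in RING1B I53S cells (SE 0.17, edgeR adjusted p = 0.000559) and -0.44 in RING1B WT cells (edgeR adjusted p = 0.206).

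Zfp42 (ENSMUSG00000051176.6, chr8:43295063-43306980, minus strand) encodes REX1, the usual reporter of exit from the naive state. It went from 676 and 814 CPM to 203 and 162 CPM in Parental cells and from 567 and 822 CPM to 206 and 199 CPM in RING1B I53S cells. In RING1B WT cells it read 615 and 855 CPM without OHT and 551 and 586 CPM with it. The Parental and RING1B I53S OHT groups overlapped one another and lay far under all other groups of these 3 lines. The change was -2.03 in Parental cells (SE 0.21, edgeR adjusted p = 7.02e-07), -1.78 in RING1B I53S cells (SE 0.21, edgeR adjusted p = 5e-06) and -0.37 in RING1B WT cells (edgeR adjusted p = 0.389). Its processed copy Zfp42-ps1 was counted at 27.6 to 43.5 CPM of total reads in the vehicle and RING1B WT libraries of the 3 RING1B lines, at 7.01 to 8.0 CPM in Parental and RING1B I53S libraries with OHT and at 0.575 to 0.955 CPM in Eed fl/fl libraries, so reads split between the copies cannot be told apart.

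Prdm14 (ENSMUSG00000042414.7, chr1:13113457-13127163, minus strand), a PR-domain protein that limits FGF signalling and DNA methylation in ESCs and is needed for germ cells, was the least abundant of the 10 in the 3 RING1B lines. It went from 45.1 and 38.0 CPM to 12.7 and 13.8 CPM in Parental cells and from 43.6 and 47.3 CPM to 11.4 and 14.6 CPM in RING1B I53S cells. RING1B WT cells held 46.1 and 48 CPM without OHT and 44.1 and 38.5 CPM with it. The RING1B WT groups were nearly level, and the OHT values of the other lines were the lowest of all. The change was -1.65 in Parental cells (SE 0.21, edgeR adjusted p = 7.77e-06), -1.80 in RING1B I53S cells (SE 0.21, edgeR adjusted p = 5.48e-06) and -0.19 in RING1B WT cells (edgeR adjusted p = 0.707).

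Dppa3 (ENSMUSG00000046323.8, chr6:122626410-122630272, plus strand), a maternal and germline protein that shields the maternal genome of the zygote from demethylation, went the opposite way. It rose from 121 and 114 CPM to 335 and 364 CPM in Parental cells and from 124 and 126 CPM to 231 and 255 CPM in RING1B I53S cells. RING1B WT cells held 146 and 143 CPM without OHT and 119.5 and 168 CPM with it. The OHT values were highest in Parental cells, intermediate in RING1B I53S cells, and spanned the vehicle values in RING1B WT cells. The log2 fold change was 1.57 in Parental cells (SE 0.18, edgeR adjusted p = 2.97e-06), 0.96 in RING1B I53S cells (SE 0.18, edgeR adjusted p = 0.000589) and -0.01 in RING1B WT cells (edgeR adjusted p = 0.985). Its pseudogene Dppa3-ps held 0.335 to 2.47 CPM of total reads.

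**Figure D2:**
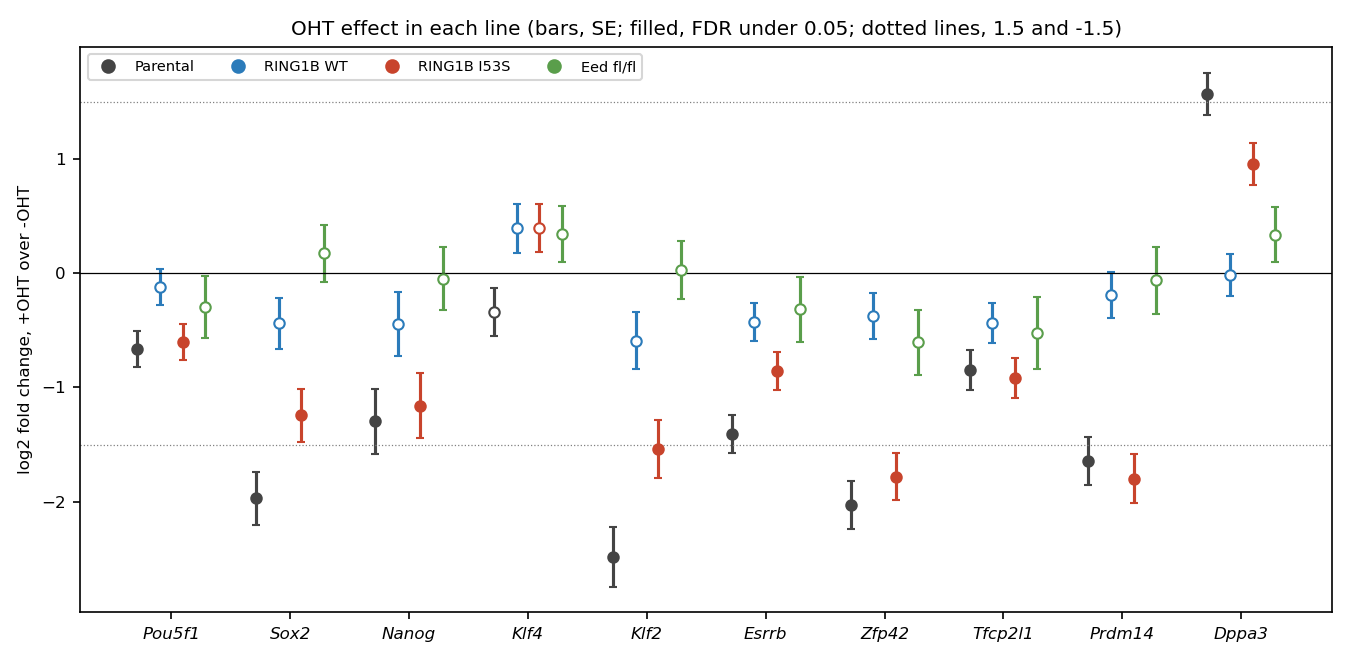
Log2 fold change with OHT over vehicle of each gene (y axis) in the 4 lines (colours), with the SE as bars, filled points for an adjusted p under 0.05 and dotted lines at 1.5 and -1.5. Parental values run from -2.48 (Klf2) to 1.57 (Dppa3), and all RING1B WT and Eed fl/fl points are open.

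Set against each other with OHT present, RING1B WT cells held more RNA than Parental cells for Sox2 (1.52 on the log2 scale, edgeR adjusted p = 0.000188), Klf2 (1.66, 0.000228), Zfp42 (1.64, 3.23e-05), Prdm14 (1.64, 4.09e-05), Tfcp2l1 (1.19, 0.000127) and Esrrb (1.01, 0.000397). Dppa3 was lower (-1.28, edgeR adjusted p = 9.95e-05). These are 6 genes higher, against 5.76% of all genes tested, and 1 lower, against 12.4%. With the fold threshold 4 were higher, against 1.06%, and this count was 2 without the Parental OHT library of replicate 2. Pou5f1, Nanog and Klf4 had log2 differences of 0.42, 0.76 and 0.60 and adjusted p-values from 0.0547 to 0.0718 by edgeR. Since vehicle values of Tfcp2l1 were also higher in RING1B WT cells, the OHT effects themselves were also compared.

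For 6 of the 10 genes the effect of OHT was not the same in RING1B WT as in Parental cells. Its difference (RING1B WT minus Parental, log2) was 1.53 for Sox2 (SE 0.32, edgeR adjusted p = 0.0145), 1.89 for Klf2 (SE 0.35, 0.00632), 1.66 for Zfp42 (SE 0.29, 0.00374), 1.46 for Prdm14 (SE 0.29, 0.00998) and 0.99 for Esrrb (SE 0.23, 0.0308), and -1.59 for Dppa3 (SE 0.26, 0.00219). The 5 positive differences stand against 0.837% of all genes and the 1 negative difference against 1.23%. With the fold threshold the counts were 3, against 0.435%, and 1, against 1.1%. For Tfcp2l1 the difference was 0.41 (SE 0.24, edgeR adjusted p = 0.477), with Pou5f1 at 0.54, Nanog at 0.85 and Klf4 at 0.73 also short of the threshold. The Esrrb call was lost when any of 7 of the 8 libraries was left out (all except the Parental vehicle library of replicate 1), with edgeR adjusted p-values from 0.0582 to 0.196. Sox2 and Prdm14 each lost theirs without RING1B WT replicate 1 of either treatment and without Parental OHT replicate 2. Sox2 also lost it without Parental vehicle replicate 2 and Prdm14 without Parental OHT replicate 1, with edgeR adjusted p-values from 0.0602 to 0.0957 over these fits. For Klf2 it was 0.0543 without Parental OHT replicate 1, and Zfp42 and Dppa3 kept an adjusted p under 0.05 in all 8 fits. The count past the fold threshold was 2 without RING1B WT replicate 1 of either treatment.

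With OHT, RING1B I53S cells held less RNA than RING1B WT cells for Prdm14 (-1.66, edgeR adjusted p = 8.09e-05), Zfp42 (-1.49, 0.00014), Sox2 (-0.92, 0.011), Klf2 (-0.80, 0.0396), Tfcp2l1 (-0.74, 0.00762) and Pou5f1 (-0.50, 0.0426). Dppa3 was higher (0.76, edgeR adjusted p = 0.00888). By adjusted p alone 6 were lower, against 3.58% of all genes tested, and 1 higher, against 9.69%, and with the fold threshold 1 (Prdm14) was lower, against 0.6%. Nanog (-0.85, edgeR adjusted p = 0.0541) and Esrrb (-0.49, 0.0545) lay just beyond the threshold, and the Klf4 difference was 0.02 (edgeR adjusted p = 0.976). The calls of Prdm14 and Zfp42 held with each library left out. Those of the other 5 genes did not, and without RING1B WT OHT replicate 1 their edgeR adjusted p-values were 0.173 for Pou5f1, 0.111 for Sox2, 0.124 for Klf2, 0.0737 for Tfcp2l1 and 0.208 for Dppa3. In that fit the count past the fold threshold was 2.

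RING1B I53S and Parental cells with OHT could not be separated for any of the 10 genes by adjusted p. Of all genes 0.303% passed. DESeq2 passed 0 of the 10. An unadjusted edgeR p under 0.05 was found for 6 of the 10, against 4.96% of all genes. The largest differences were at Klf2 (0.86, SE 0.26, edgeR adjusted p = 0.355), Klf4 (0.62, SE 0.21) and Sox2 (0.60, SE 0.23). The difference in OHT effect between these lines likewise passed for 0 of the 10 and for 0% of all genes by edgeR. By DESeq2 it passed for 0 of the 10. Where 2.69% of all genes had an unadjusted edgeR p under 0.05, 5 of the 10 did. These were Klf2 (0.94, SE 0.35), Sox2 (0.73, SE 0.32), Esrrb (0.55, SE 0.23), Dppa3 (-0.61, SE 0.26) and Klf4 (0.74, SE 0.30), each with an edgeR adjusted p of 1. For Klf2, Sox2, Esrrb and Dppa3 the change in RING1B I53S cells was the smaller of the 2.

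Without OHT, Tfcp2l1 was the gene of the 10 with the lowest p between lines. RING1B I53S against Parental vehicle cells gave 0 genes past the threshold by edgeR and by DESeq2, against 0.303% of all genes, and RING1B WT against Parental gave 0 by edgeR, against 0.0606%. At an unadjusted edgeR p under 0.05 each comparison held 1 of the 10 genes, against 5.22% and 4.54% of all genes. This was Tfcp2l1, at 0.51 (SE 0.17, edgeR adjusted p = 0.49) and 0.77 (SE 0.17, edgeR adjusted p = 0.208). DESeq2 passed Tfcp2l1 in the latter (0.76, adjusted p = 0.018).

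In Eed fl/fl cells Eed itself went from 255 and 173 CPM to 67.1 and 43.7 CPM with OHT (-1.95, SE 0.32, edgeR adjusted p = 0.0766). Among the 10 genes 0 passed by edgeR, DESeq2 or limma, all without pairing of replicates, where 0.00795% of 25170 genes tested passed by edgeR. An unadjusted edgeR p under 0.05 was found for 0 of the 10, against 5.45% of all genes tested. Sox2 read 108 and 98.9 CPM without OHT and 111 and 122 CPM with it, and Prdm14 65.8 and 46.3 CPM without OHT and 66.1 and 41.2 CPM with it. The 2 OHT values of Sox2 lay just above its vehicle values, and the Prdm14 groups overlapped. Zfp42 had the largest value, from 387 and 292 CPM to 250 and 197 CPM (-0.60, SE 0.28, edgeR adjusted p = 0.833), with no overlap between groups. Tfcp2l1 went from 1521 and 1032 CPM to 1010 and 764 CPM (-0.52, SE 0.32), and Dppa3 from 81.2 and 83.3 CPM to 105 and 103 CPM (0.34, SE 0.24), again without overlap. Pou5f1 read 406 and 376 CPM without OHT and 348 and 288 CPM with it, and Esrrb 462 and 371 CPM without OHT and 382 and 287 CPM with it. Nanog (412 and 340 CPM, then 401 and 327 CPM) and Klf2 (80.8 and 61.9 CPM, then 64.9 and 80.8 CPM) overlapped between groups. Klf4 read 99.5 and 92.4 CPM without OHT and 118 and 126 CPM with it. The SE of these fold changes was 0.24 to 0.32, and the change of Eed itself missed the threshold. The Eed fl/fl and RING1B lines were tested in separate fits, and the difference between them was not tested.

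Divided by the summed exon length, the order of the genes changed with OHT in Parental cells. Vehicle cells had mean levels of 396 CPM per kb of exon for Zfp42, 226 for Nanog, 223 for Pou5f1, 132 for Dppa3, 112 for Tfcp2l1, 96.2 for Sox2, 90.7 for Esrrb, 58.8 for Klf2, 31.9 for Klf4 and 16.2 for Prdm14. Neighbours overlapped between Nanog and Pou5f1, between Tfcp2l1 and Sox2 and between Sox2 and Esrrb. With OHT the order was Dppa3 (392 CPM per kb), Pou5f1 (141), Zfp42 (96.9), Nanog (92), Tfcp2l1 (62.0), Esrrb (34.1), Klf4 (25.2), Sox2 (24.5), Klf2 (10.5) and Prdm14 (5.18), with overlaps between Zfp42 and Nanog and between Klf4 and Sox2. Zfp42 went from the top to the level of Nanog, and Dppa3 took its place. RING1B I53S cells with OHT also had Dppa3 on top, at 272 CPM per kb, while RING1B WT cells with OHT kept Zfp42 there, at 302.

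Over the 12 libraries of the 3 RING1B lines, the gene whose log2 CPM followed each of the 10 most closely was Lefty2 for Pou5f1 (Pearson r = 0.988), Zfp980 for Sox2 (0.987), Zfp874a for Nanog (0.981), Ttc39b for Klf2 (0.989), Slc38a2 for Esrrb (0.988), Zfp59 for Zfp42 (0.992), Gm14439 for Tfcp2l1 (0.964), Pecam1 for Prdm14 (0.989) and Mgp for Dppa3 (0.992). Klf4 had no partner as close, with Gm16399 at 0.877. Among the 10 themselves, r was 0.971 between Sox2 and Klf2, -0.00699 between Pou5f1 and Klf4, and -0.954 between Sox2 and Dppa3. The libraries share 6 groups, so these values mainly restate the group differences, and they are given as a description.

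Other genes of the pluripotency network followed the 10. Another 20 naive and general pluripotency genes were read (Tbx3, Nr0b1, Nr5a2, Klf5, Fgf4, Tet1, Dppa5a, Sall4 and others). Of these 18 fell in Parental cells with OHT by adjusted p, against 12.4% of all genes. In RING1B I53S cells 16 fell, against 8.37%, and in RING1B WT cells 3 fell, against 0.308%. In each of these lines 0 of the 20 rose. Their median log2 fold change was -1.11, -0.79 and -0.30 in the 3 lines. Tdgf1, the Nodal co-receptor Cripto, fell from 880 and 1150 CPM to 116 and 82.0 CPM in Parental cells (-3.36, SE 0.21, edgeR adjusted p = 2.93e-09). For 7 of the 20 the effect of OHT in RING1B WT cells passed a test of difference from that in Parental cells in the positive direction, against 0.837% of all genes.

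Genes of the formative and primed states, which replace the naive factors as cells progress, had members that rose and members that fell. Of 15 genes 6 rose and 2 fell in Parental cells (all genes, 21.9% and 12.4%). In RING1B I53S cells 8 rose and 3 fell (all genes, 18.4% and 8.37%). In RING1B WT cells 0 passed (all genes, 2.21% in either direction). The medians were 1.07, 0.98 and 0.05 in the same order. Fgf15 went from 0.815 and 0.124 CPM to 5.29 and 5.46 CPM (3.34, SE 0.59, edgeR adjusted p = 0.000227). Sox3, a neural-lineage relative of Sox2, had 0 counts in both Parental vehicle libraries and 2.39 and 2.34 CPM with OHT (edgeR adjusted p = 0.000166). Zic2 went from 23.5 and 30.5 CPM to 4.44 and 8.19 CPM (-2.10, edgeR adjusted p = 1.91e-05) and Lef1, a nuclear effector of Wnt signals, from 45.6 and 49.2 CPM to 22.3 and 14.2 CPM (-1.37, edgeR adjusted p = 0.00019).

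In the LIF pathway, which holds up Klf4 and Tfcp2l1 through STAT3, both receptor chains fell in Parental cells while the immediate-early genes Jun and Junb rose. Il6st (gp130) went from 102 and 126 CPM to 30.0 and 37.5 CPM in Parental cells (-1.75, edgeR adjusted p = 2.24e-06), and Lifr from 105 and 121 CPM to 59.4 and 51.0 CPM (-1.03, edgeR adjusted p = 0.000211). Jun rose from 14.9 and 4.33 CPM to 89.8 and 182 CPM (3.77, edgeR adjusted p = 0.000265) and Junb from 13.9 and 10.0 CPM to 35.6 and 227 CPM (3.44, edgeR adjusted p = 0.00985). In RING1B WT cells the log2 fold changes were 3.03 for Jun (edgeR adjusted p = 0.023) and 3.02 for Junb (edgeR adjusted p = 0.114). Junb read 13.2 and 157 CPM there with OHT and 21.7 and 337 CPM in RING1B I53S cells, so the OHT library numbered 2 stood far above the other in all 3 lines. Of the 10 pathway genes 4 rose and 3 fell in Parental cells (all genes, 21.9% and 12.4%). In RING1B I53S cells 4 rose and 2 fell (all genes, 18.4% and 8.37%). In RING1B WT cells 1 (Jun) rose (all genes, 1.91%). The medians were 0.40, 0.22 and -0.08 in the same order. Of 8 genes of the Wnt pathway and its TCF factors 1, Cdx1, rose in Parental cells (all genes, 21.9%). It went from 1.71 and 3.21 CPM to 10.6 and 14.6 CPM (2.39, edgeR adjusted p = 0.000155). In RING1B I53S cells 1 of the 8 rose (all genes, 18.4%) and in RING1B WT cells 0 (all genes, 1.91%). With 8 genes these counts cannot be set apart from the shares of all genes. The medians of the 8 were 0.32, 0.29 and 0.004 in the same order.

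Of 10 genes of the 2-cell-like state 5 passed the filter on low counts and were tested. Their summed level was 9.36 to 12.4 CPM in Parental cells with OHT and at most 1.65 CPM in the other groups of the 3 lines. They thus entered the test through the group where they were high. That 4 of them rose in Parental cells (all genes, 21.9%) therefore carries no weight. In either direction 0 of the 5 passed in RING1B I53S cells (all genes, 26.7%) and 0 in RING1B WT cells (all genes, 2.21%), where they were barely counted. Their levels were low. Zscan4d went from 0.0815 and 0.371 CPM to 4.18 and 2.73 CPM in Parental cells (4.02, SE 0.89, edgeR adjusted p = 0.00157), and Usp17la from 0 counts in both libraries to 1.45 and 1.66 CPM (edgeR adjusted p = 0.00241). Members of both families are near-identical copies, so their counts are uncertain.

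Markers of other cell types rose in Parental and RING1B I53S cells, and some also in RING1B WT cells, where 0 of the 10 genes passed. In Parental cells 9 of 10 primitive endoderm markers and 7 of 9 tested trophoblast markers rose with OHT, against 21.9% of all genes. Of 10 fibroblast markers only 4 passed the filter on low counts, and all 4 rose. Among these Col1a2 read 0.163 and 0.124 CPM without OHT and 6.23 and 6.14 CPM with it. The filter can thus keep a marker because it was high with OHT, and the fibroblast count carries no weight against the share of all genes. In RING1B I53S cells these counts were 9, 6 and 4, against 18.4%, and in RING1B WT cells 1, 4 and 1, against 1.91%. The summed primitive endoderm level in Parental cells was 103 to 113 CPM without OHT, with Gata6, Sox7 and Foxa2 at 0, and 382 to 392 CPM with it. The trophoblast sum went from between 176 and 211 CPM to between 476 and 484 CPM, and the fibroblast sum from between 23.5 and 24.0 CPM to between 66.1 and 68.8 CPM, with Col3a1, Dcn and Lum at 0 in both groups. Col4a1 (3.28, edgeR adjusted p = 2.11e-08), Lamb1 (1.73, 9.08e-07), Gata3 (6.70, 7.02e-10), Hand1 (6.33, 1.43e-08), Col1a1 (2.68, 2.1e-06) and Col1a2 (5.29, 2.93e-05) had the lowest adjusted p-values of these lists in Parental cells. Their part in the changes of the 10 genes was not tested, and in bulk RNA fewer cells of a type and less RNA per cell cannot be told apart. In Eed fl/fl cells 0 genes of any of these lists passed by edgeR, against 0.00795% of all genes tested there.

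The ChIP-seq data held 70 peak lists for 12 antibodies. These were H2AK119ub1 and H3K27me3, the PRC1 proteins RING1B, PCGF2, PCGF6, CBX7 and RYBP, and the PRC2 proteins SUZ12, MTF2, JARID2, EPOP and AEBP2. There was 1 library per antibody and condition, except for MTF2 and JARID2 with 2 in OHT-treated RING1B WT and RING1B I53S cells, so peak differences have no replicate check and no test. The peak score is the MACS2 -log10 p, at least 10 in every list, and grows with sequencing depth, which is unknown for these files. A missing peak therefore means a signal under this threshold at this depth. Of the 10 genes 7 had a peak in at least 1 list, against 66.6% of 21910 protein-coding genes. Pou5f1, Nanog and Zfp42 had none of any antibody in any condition, and 0 of the 10 had a peak in the 4 input lists.

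Peak counts separated 3 heavily marked genes from the rest. Esrrb had a peak in 52 of the 70 lists, Dppa3 in 33 and Prdm14 in 29, against 7 for Klf4, 6 for Tfcp2l1 and 4 each for Sox2 and Klf2. In Parental vehicle cells 10 of the 12 antibodies had a peak at Esrrb, 9 at Prdm14 and 9 at Dppa3. With OHT these numbers were 6, 3 and 1 in Parental cells, 7, 0 and 1 in RING1B I53S cells, and 11, 7 and 9 in RING1B WT cells. The Esrrb window is long, since the gene spans 160512 bp.

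**Figure D3:**
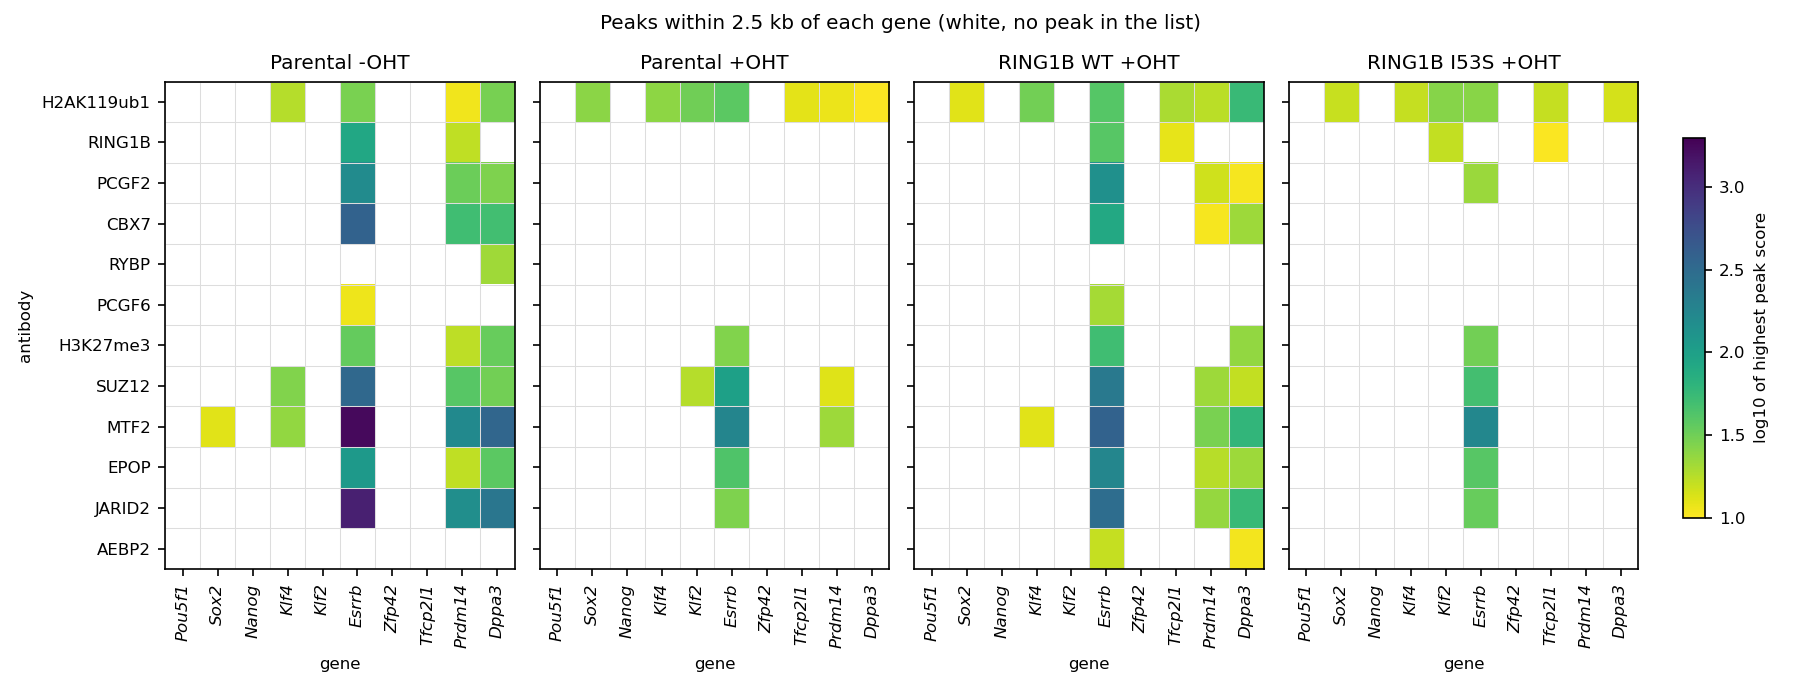
Peaks of the 12 antibodies (rows) within 2.5 kb of each gene (columns) in 4 conditions (panels), coloured by the log10 of the highest peak score, the higher of 2 libraries for MTF2 and JARID2 in RING1B WT and I53S cells. White means no peak, as in all rows for Pou5f1, Nanog and Zfp42, and the Esrrb column is the fullest in each panel.

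At Esrrb no peak sat on the first annotated start. In the 4 conditions the highest-scoring peak of each antibody lay at internal starts 60527 and 60766 bp into the gene, where shorter transcripts begin. Mostly weaker peaks of H3K27me3, H2AK119ub1, MTF2, JARID2, EPOP and SUZ12 were listed elsewhere in the gene. Apart from those of H3K27me3, none of these was listed in Parental or RING1B I53S cells after 72 h of OHT. The RING1B peak at chr12:86420896-86423459 scored 84.1 in Parental vehicle cells and 39.4 in RING1B WT cells with OHT, and there was none in Parental or RING1B I53S cells with OHT. CBX7, a reader of H3K27me3, went the same way, with 375 in Parental vehicle cells and 82.2 in RING1B WT cells, and PCGF2 scored 154 and 141 there and 22.3 in RING1B I53S cells. Among all protein-coding genes with the peak in Parental vehicle cells, a RING1B peak was also present in 5.36% in Parental cells with OHT, 71.7% in RING1B WT cells and 11.6% in RING1B I53S cells. The PCGF2 peak was still found at 1.1%, 73.5% and 12.7% of genes in the same order.

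At Esrrb, SUZ12, MTF2, JARID2, EPOP and H3K27me3 had a peak in all 4 conditions, and AEBP2 had one only in RING1B WT cells with OHT (15.9). SUZ12 scored 336 in Parental vehicle cells, 97.5 in Parental cells with OHT, 234 in RING1B WT cells and 48.7 in RING1B I53S cells. MTF2 had the highest score of any of the 10 genes, 1750 in Parental vehicle cells, and read 180 in Parental cells with OHT, 256 and 375 in the 2 RING1B WT libraries and 54.9 and 172 in the 2 RING1B I53S libraries. JARID2 read 1240 in Parental vehicle cells, 27.8 with OHT, 254 and 302 in RING1B WT cells and 33.9 and 22.9 in RING1B I53S cells. For both proteins the RING1B WT libraries lay above those of RING1B I53S cells. H3K27me3 scored 34.9, 27.2, 50.9 and 31.0 in Parental vehicle, Parental OHT, RING1B WT and RING1B I53S cells, with a domain of several kb over the internal starts. In MTF2 KO derivatives SUZ12 kept a peak of 42.8 in Parental vehicle cells and 58.7 in RING1B WT cells with OHT, and had none in the Parental or RING1B I53S derivatives with OHT. H2AK119ub1 peaks at Esrrb remained listed in all 4 conditions, at 28.8, 38.1, 40.1 and 25.7. Those over the internal starts were 4557 bp wide in Parental vehicle cells and 5509 bp in RING1B WT cells. The peaks of Parental cells with OHT (2246 bp) and RING1B I53S cells (1345 bp) began just downstream of both internal starts. These lists were called without the spike-in scaling of the study, so their scores do not compare total ubiquitination.

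At Dppa3, the gene that rose, peaks lay upstream of the start and over the gene. H2AK119ub1 formed a peak of 29.9 at chr6:122620789-122625609 and another of 13.8 within the gene in Parental vehicle cells, and a single peak of 54.6 at chr6:122620412-122629293 in RING1B WT cells. In Parental cells with OHT the peak scored 10.4, and in RING1B I53S cells 14. MTF2 scored 347 in Parental vehicle cells and 33.5 and 60.7 in RING1B WT cells, JARID2 247 and then 27.5 and 56.4, and CBX7 49.8 and then 21.8. PCGF2 (27.7 and 10.7), SUZ12 (30.6 and 16.3) and H3K27me3 (34.0 and 23.4) likewise had peaks in these conditions, and none of these 6 antibodies had one in Parental or RING1B I53S cells after 72 h of OHT. Among all protein-coding genes with the peak in Parental vehicle cells, most lost CBX7, PCGF2 and JARID2 as well. In Parental and RING1B I53S cells with OHT CBX7 was kept at 1.23% and 0.676% and PCGF2 at 1.1% and 12.7%. JARID2 was kept at 16.1% and, in either of 2 libraries, 12.7%. By contrast H3K27me3, SUZ12 and MTF2 peaks were kept at many other genes. H3K27me3 was kept at 70.2% of genes in Parental cells and at 58.3% in RING1B I53S cells. SUZ12 was kept at 67.5% of genes in Parental cells and at 43.3% in RING1B I53S cells. MTF2 was kept at 50.0% in Parental cells and, counting a peak in either of 2 libraries, at 51.6% in RING1B I53S cells. Those 2 libraries had MTF2 peaks at 12.6% and 28.1% of protein-coding genes, and the single Parental OHT library at 27.6%. RING1B had no peak at Dppa3 in any condition.

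Prdm14 carried peaks over its start and the bases just downstream, and its RNA fell. RING1B scored 16.7 there in Parental vehicle cells and had no peak in the other conditions, RING1B WT included. CBX7 read 50.4 in Parental vehicle cells and 10.7 in RING1B WT cells, PCGF2 32.6 and 14.7, and JARID2 146 and then 20.1 and 23.2. SUZ12 scored 39.4 in Parental vehicle cells, 13 in Parental cells with OHT and 21.7 in RING1B WT cells, and MTF2 160, 21.8, and 23.6 and 28.8. H2AK119ub1 lay near the threshold in Parental cells, at 11.1 without OHT and 11.6 with it, and scored 17.3 in RING1B WT cells. In RING1B I53S cells with OHT for 72 h no antibody had a peak at Prdm14.

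For MTF2 and JARID2 the RING1B WT and RING1B I53S lines were also profiled without OHT, and all 3 lines after 48 h of OHT. Without OHT the 2 lines scored alike. MTF2 read 617 in RING1B WT and 536 in RING1B I53S cells at Esrrb, 96.8 and 89.9 at Dppa3, and 35.9 and 35.5 at Prdm14. JARID2 read 495 and 447, 75.5 and 73.6, and 43.5 and 39.2 at the same genes in the same order. After 48 h of OHT the lines stood apart at all 3 genes. MTF2 at Esrrb scored 546 in RING1B WT, 280 in RING1B I53S and 327 in Parental cells, and JARID2 358, 35.7 and 102. At Dppa3 MTF2 scored 53.4 in RING1B WT and 11.7 in RING1B I53S cells and JARID2 53.4 in RING1B WT cells alone, and Parental cells had neither peak. At Prdm14 MTF2 scored 48 in RING1B WT, 14.8 in RING1B I53S and 17.7 in Parental cells, and JARID2 had a peak in RING1B WT cells alone (38.7). The 14.8 and 11.7 peaks of MTF2 in RING1B I53S cells were not listed after 72 h in either library. RNA was not measured at 48 h in the libraries used here.

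**Figure D4:**
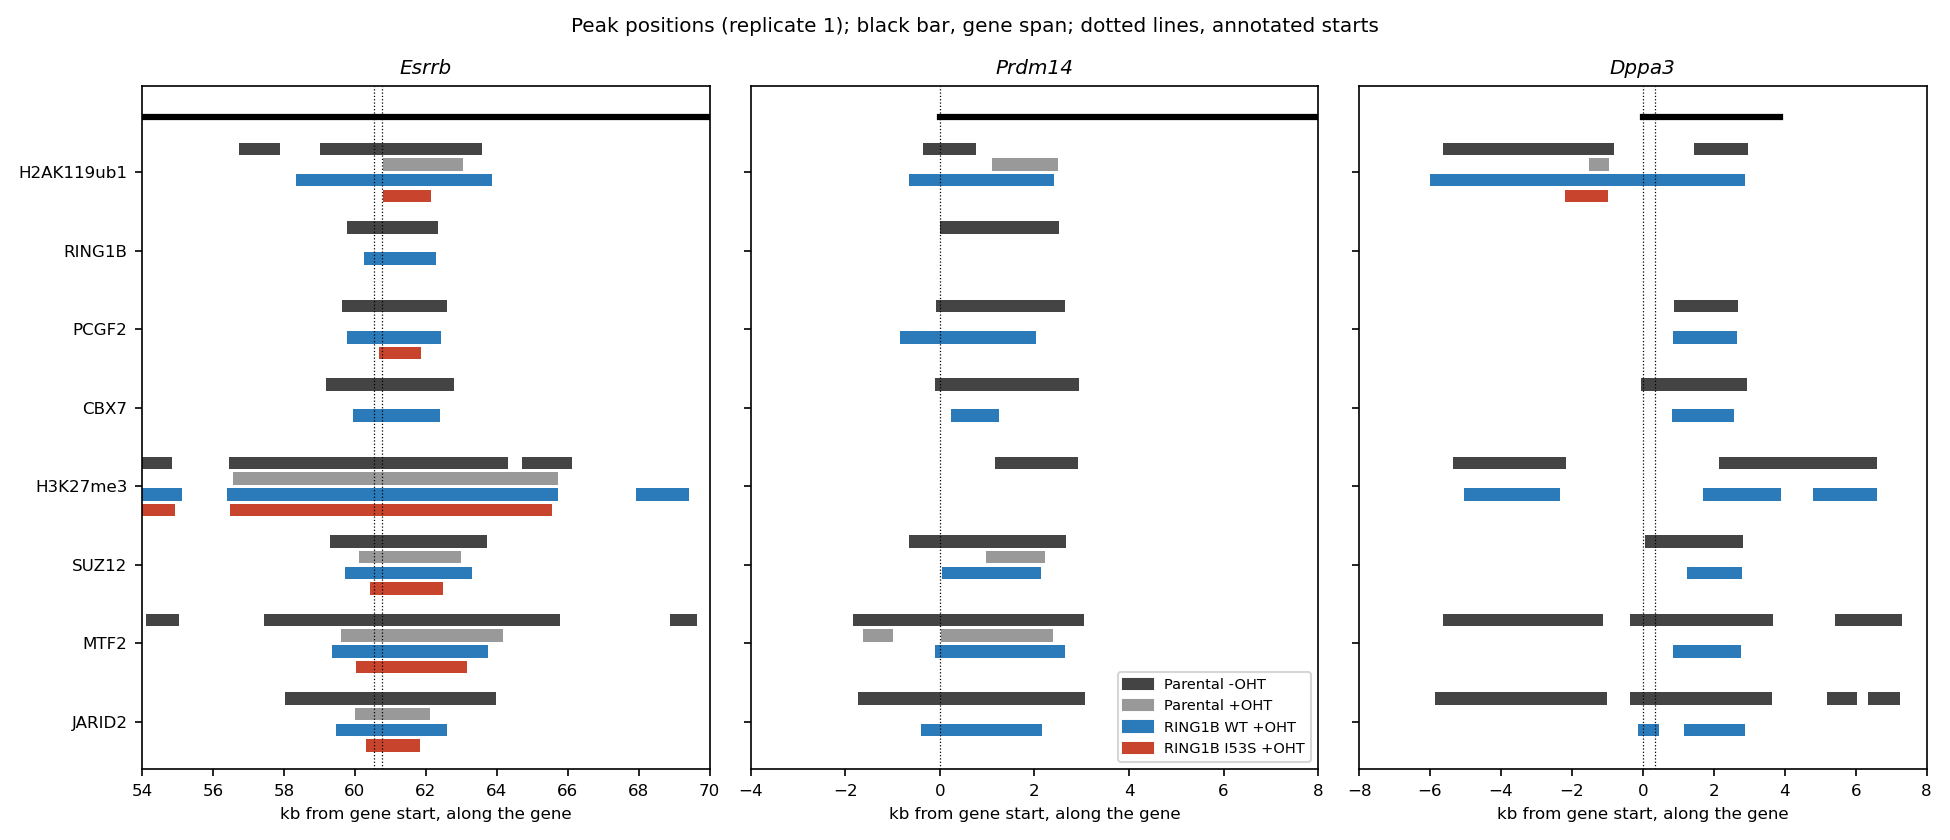
Positions of replicate 1 peaks of 8 antibodies (rows) in 4 conditions (colours) around Esrrb, Prdm14 and Dppa3, in kb from the gene start along the direction of transcription. The black bar is the gene and dotted lines are annotated starts. Most Esrrb peaks in the stretch drawn stack at or just beside the starts inside the gene, and the Dppa3 panel has almost no Parental OHT or RING1B I53S bars.

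The 3 heavily marked genes can be set beside all genes with such peaks. Of 3691 tested genes with a RING1B peak in Parental vehicle cells, 58.0% rose and 4.12% fell with OHT by adjusted p, and of 3479 genes with a PCGF2 peak 62.8% rose and 2.56% fell. Of 5009 genes with an H2AK119ub1 peak 47.5% rose and 5.37% fell, and of 5931 with a SUZ12 peak 47.7% rose and 4.64% fell. Esrrb and Prdm14 are in all 4 sets and among the genes that fell, and Dppa3 is in all but the RING1B set and rose.

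The remaining genes with peaks carried H2AK119ub1 and little else. At Klf4 it scored 18.0, 24.5, 30.6 and 16.0 in Parental vehicle, Parental OHT, RING1B WT and RING1B I53S cells, and SUZ12 (27.1) and MTF2 (23.8) had peaks in Parental vehicle cells. At Sox2 H2AK119ub1 peaks were listed in the 3 OHT conditions, at 25.1, 12.7 and 15.5, and in Parental vehicle cells only MTF2 had a peak (12.7). Tfcp2l1 had H2AK119ub1 peaks in the same 3 conditions, at 12.3, 19.6 and 16.0, and small RING1B peaks inside the gene in RING1B WT (12.2) and RING1B I53S cells (10.3). Klf2 had no peak in Parental vehicle or RING1B WT cells, and with OHT had H2AK119ub1 peaks of 31.5 in Parental and 26.0 in RING1B I53S cells, a RING1B peak of 16.4 in RING1B I53S cells and a SUZ12 peak of 18.1 in Parental cells. The H2AK119ub1 lists of Parental and RING1B I53S cells with OHT held peaks at 7 and 6 of the 10 genes, Klf4 included. These stand against 22.4% and 12.8% of protein-coding genes. The paper reports a global loss of H2AK119ub1 in both conditions. The peaks come from single libraries and were called without spike-in scaling, so a change of the mark at Klf2 cannot be read from them.

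The promoters show how CpG-rich sequence is shared out among these genes. Below are the 250 bases before the start of the 4 genes that had both a promoter entry and a peak of RING1B or H2AK119ub1 near that start in Parental vehicle or RING1B WT cells, and for contrast those of Nanog, chosen after its values were seen because it had no peak. They are from RefSeq on GRCm38.p6, read 5′ to 3′ on the gene's strand, with CG dinucleotides in capitals.
Klf4 chr4:55532476-55532725, minus strand: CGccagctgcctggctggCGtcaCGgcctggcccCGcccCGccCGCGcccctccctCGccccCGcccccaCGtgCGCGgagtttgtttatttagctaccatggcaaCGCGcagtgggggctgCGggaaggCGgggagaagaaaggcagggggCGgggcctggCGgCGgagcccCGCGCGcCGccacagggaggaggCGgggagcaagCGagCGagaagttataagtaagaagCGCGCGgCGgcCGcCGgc
Sox2 chr3:34649745-34649994, plus strand: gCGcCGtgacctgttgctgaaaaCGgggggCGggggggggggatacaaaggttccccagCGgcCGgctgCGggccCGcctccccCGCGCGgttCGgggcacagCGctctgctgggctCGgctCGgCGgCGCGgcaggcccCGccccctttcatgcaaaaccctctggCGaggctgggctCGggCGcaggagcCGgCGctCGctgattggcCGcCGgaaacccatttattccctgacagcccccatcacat
Tfcp2l1 chr1:118627695-118627944, plus strand: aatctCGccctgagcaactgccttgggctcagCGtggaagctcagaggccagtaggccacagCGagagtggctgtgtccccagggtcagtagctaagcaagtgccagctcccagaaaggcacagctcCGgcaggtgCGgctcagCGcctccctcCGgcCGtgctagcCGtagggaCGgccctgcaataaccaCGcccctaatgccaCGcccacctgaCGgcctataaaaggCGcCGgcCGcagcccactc
Esrrb internal start chr12:86421394-86421643, plus strand: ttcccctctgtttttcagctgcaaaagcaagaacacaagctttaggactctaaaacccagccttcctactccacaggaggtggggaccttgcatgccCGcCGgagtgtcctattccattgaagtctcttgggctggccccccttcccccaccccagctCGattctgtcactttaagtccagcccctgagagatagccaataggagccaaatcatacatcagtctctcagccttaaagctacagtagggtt
Nanog chr6:122707239-122707488, plus strand: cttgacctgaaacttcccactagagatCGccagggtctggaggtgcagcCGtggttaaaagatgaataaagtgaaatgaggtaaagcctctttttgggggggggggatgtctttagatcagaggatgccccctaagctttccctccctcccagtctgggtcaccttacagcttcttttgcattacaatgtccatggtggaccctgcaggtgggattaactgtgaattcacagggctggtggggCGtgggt

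Klf4 held 32 CG dinucleotides in these bases, Sox2 27, Tfcp2l1 16, and the Esrrb internal start and Nanog 3 each, where the median over 32851 RefSeq promoters was 6. Of all these promoters 29.0% held fewer than 3. Over all lists 46 peaks covered the bases before the internal Esrrb start, against 2 for Tfcp2l1 and 0 for the others shown. Within 500 bp on either side the internal Esrrb start had a CpG observed over expected ratio of 0.661, above the 0.283 of the first Esrrb start, where no antibody had a peak over the promoter. On this measure Klf4 (0.96) and Sox2 (0.959) stood at percentiles 96.3 and 96.2 of protein-coding genes, Klf2 at 0.713, Tfcp2l1 at 0.584, Prdm14 at 0.504, Zfp42 at 0.503, Dppa3 at 0.443, Pou5f1 at 0.332 and Nanog at 0.303, with a median of 0.552. The 3 genes with no peak all lay below that median, as did Prdm14 and Dppa3.

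On both strands of the 250 bases, 5 short motifs were searched. The E-box CACGTG, found in 6.02% of all promoters, and the E2F motif GCGGGAA, found in 3.82%, occurred in Klf4 once each. The octamer ATGCAAAT (1.6% of promoters) occurred in Zfp42, the SOX motif CATTGTT (3.29%) in the second listed start of Pou5f1, and TATAAA (12.4%) in Tfcp2l1. RefSeq promoter entries were matched for 8 of the 10 genes, and those of Prdm14 and Dppa3 were not analysed here.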

How the data were processed

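RNA-seq and ChIP-seq of mouse ESC lines were read from the files of the study. The RNA values are raw counts per gene name, which the authors made with STAR 2.7 on mm10 (unique alignments only), samblaster for duplicates and featureCounts without strand on GENCODE M21, and deposited. The peak lists hold scores that the authors deposited as -log10 p-values, called with MACS2 2.1.1 on Bowtie 1.2.2 alignments for each library against the E14 input. Versions follow the submitters' processing notes. The deposited normalized tables and the authors' comparison tables (fold changes and p-values) were not used, and the deposited Eed fl/fl table held counts.

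Counts were tested with edgeR 4.0.16 (quasi-likelihood, TMM, filterByExpr, R 4.3.3) in a single fit of 12 libraries in 6 groups, with Benjamini-Hochberg adjustment over all 18154 genes tested of 55341. Eed fl/fl libraries had a fit of their own (25170 genes). A gene passed at an adjusted p under 0.05, and with the fold threshold also with a log2 fold change of 1.5 or more in size. The SE is the absolute log2 fold change divided by the square root of F. With 2 against 2 an exact two-sided permutation test cannot go below 0.333, so no such test is given. The common biological coefficient of variation was 0.181 and 0.251 (Eed fl/fl), and the median depth 9991785 and 8382843 reads. The scripts were tested on simulated data. Replicates differed by more than counting noise in every group.

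A peak was given to a gene when it shared at least 1 bp with the GENCODE M21 gene span (mm10) and 2.5 kb on either side. No interval is given for scores, since the reads behind them are unknown. The 10 genes, the other gene lists and the tests were chosen with earlier results of these data known. From each list the text names for each direction the 2 genes of lowest adjusted p in Parental cells (1 of them is not reported here), and for each of the 10 the gene with the highest Pearson r of log2(CPM + 1). Promoters were printed for genes with a RING1B or H2AK119ub1 peak within 2.5 kb of the start in Parental vehicle or RING1B WT cells. Alternatives were DESeq2 1.42.0, limma 3.58.1 (Eed fl/fl), other scalings, filters and thresholds, each library left out, a replicate block, and other peak windows and score limits.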

Additional observations from a re-analysis of the deposited data

Results flagged for a closer look

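For 6 of the 10 genes the effect of OHT in RING1B WT cells was unlike that in Parental cells by the interaction term of the edgeR fit. The difference (RING1B WT minus Parental, log2) was 1.53 for Sox2, 1.89 for Klf2, 0.985 for Esrrb, 1.66 for Zfp42 and 1.46 for Prdm14, all of which fell in Parental cells and did not pass in RING1B WT cells. For Dppa3, which rose in Parental cells, it was -1.59.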

How the results depend on the processing

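The number of genes past both thresholds was 5 in Parental cells with OHT against vehicle, 3 in RING1B I53S cells, 4 between RING1B WT and Parental cells with OHT, 1 between RING1B I53S and RING1B WT cells with OHT and 4 for the difference between the RING1B WT and Parental effects of OHT. With adjusted p alone these numbers were 9, 9, 7 and 7 for the first 4. A log2 threshold of 1 gave 5 in RING1B I53S cells, 7 between RING1B WT and Parental cells and 2 between RING1B I53S and RING1B WT cells, and a fit of only the groups compared gave 2 for the last of these. With each library left out the counts ran from 4 to 7 in Parental cells, from 1 to 4 in RING1B I53S cells (1 without vehicle replicate 2), from 2 to 5 between RING1B WT and Parental cells, from 1 to 2 between RING1B I53S and RING1B WT cells and from 2 to 5 for the difference, and stayed at 0 in the other comparisons. No fold change that passed in the main analysis turned its sign in any alternative run. Of 1380 alternative values of single genes 1320 stayed on their side of the threshold, 41 fell short of it and 19 passed newly.

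Scaling by total counts alone moved the median log2 fold change of all genes to 0.226 in Parental, 0.174 in RING1B I53S, 0.111 in RING1B WT and 0.28 in Eed fl/fl cells. The numbers of genes past both thresholds were then 4 in Parental and 2 in RING1B I53S cells. Under RLE, upper quartile and total count scaling Pou5f1 no longer passed between RING1B I53S and RING1B WT cells with OHT (-0.49, -0.43 and -0.36). Klf2 no longer passed there under upper quartile and total count scaling (-0.73 and -0.65). A filter of at least 10 counts in every library also removed both calls (-0.42 for Pou5f1 and -0.72 for Klf2).

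Replicate numbers were shared across groups, but nothing in the labels says that a number marks a shared culture or day. With 2 libraries per group the correlation of replicate deviations between groups ran from -0.00931 to 0.425 in the 3 RING1B lines and was 0.502 in Eed fl/fl cells. With the replicate number as a block the counts past both thresholds were 5, 3, 0, 4, 0, 1, 0, 0, 0, 4 and 0 over the 11 comparisons, equal to those without the block. Single genes passed newly in 8 cases, among them Zfp42 (-0.60), Tfcp2l1 (-0.51) and Esrrb (-0.32) in Eed fl/fl cells, and none was lost.

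A peak of any antibody was found at 7 of the 10 genes with the 2.5 kb window, at 8 with 10 kb (Pou5f1 added) and at 6 with scores of at least 20 (Tfcp2l1 lost). Counts within single lists, the 4 inputs included, were less stable. Of 74 lists, 24 changed substantially with a window of 2.5 kb around the gene start alone, and 15 with scores of at least 20. The internal Esrrb starts, 60527 and 60766 bp into the gene, lie outside that start window, so the rank of Esrrb depends on the window. Depth per peak list is unknown, which limits any reading of absent peaks.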
